A study of Tribolium castaneum with 8 samples.

Results

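The label plasmatocytes/embryonic hemocytes/macrophages names insect blood cells. It was carried by 1261 of 31573 cells in the authors' deposited cell annotation of sorted embryonic cells from the red flour beetle Tribolium castaneum and of Drosophila cells. Of these blood cells, 910 were among 21148 beetle cells and 351 among 10425 fly cells. Members were taken by that label alone, as the authors assigned it. The annotation gives a label and a species for each cell and no expression values, so the label could not be set against serpent (srp) or Hemolectin (Hml), the genes named as its markers.

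The beetle cells came from 8 libraries of 1 group, made with the 10x Genomics droplet method. All 8 share the genotype label turbo GFP, an untreated embryo stage of 35 to 50 hours and a Gal4 enhancer trap that switches on this green fluorophore in neuroblasts, which are neural stem cells. Each library carries its own strain label, in an unbroken run from GoGal41519 to GoGal41526, while the series' design text speaks of a single line. Suspensions passed a 20 μm strainer, and live cells were then sorted for fluorescence, with unstained wild-type cells used to set the gates. An enhancer trap reports where the driver is active, and the labels do not say whether blood cells carry the reporter. No source used here gives the stage, genotype or isolation of the fly cells, which form 1 pooled set. All shares are of annotated cells, and no source used here says how many sorted cells were left unannotated.

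As background, most blood cells of the Drosophila embryo are plasmatocytes, which act as macrophages. They arise from the head mesoderm under the GATA factor Serpent, spread through the embryo along set routes that include the ventral nerve cord, engulf dying cells and secrete extracellular matrix. Hemolectin is a clotting protein of fly blood cells. Cells with the deposited label Mesodermal/muscle progenitors belong to the germ layer from which blood cells also derive, and they were the other large label outside the nervous system. In what follows, the non-neural cells are those labelled blood, mesodermal or PCGs, an abbreviation that is not explained in the sources used here. The remaining 7 labels are counted as neural.

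Blood cells were found in every beetle library. Library 1 held 97 blood cells among 1754 annotated cells, library 2 held 112 among 1974, library 3 held 3 among 77, and library 4 held 7 among 392. Library 5 held 205 among 3726, library 6 held 131 among 1852, library 7 held 234 among 3734, and library 8 held 121 among 7639. The smallest libraries, 3 and 4, thus held the fewest blood cells, while the largest, library 8, held fewer than libraries 5, 6 and 7. Library 8 gave 36.1% of the beetle cells and 13.3% of the beetle blood cells. Library 7 gave 17.7% of the cells and 25.7% of the blood cells.

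As a share of all annotated cells, the blood cell label averaged 4.66% ± 2.04 (SD, n = 8 libraries). The share was highest in library 6, at 7.07% (exact 95% binomial interval 5.95% to 8.34%), and in library 7, at 6.27% (5.51% to 7.09%). Libraries 1, 2 and 5 lay close together at 5.53%, 5.67% and 5.50%. The share was 3.90% in library 3, where 3 blood cells leave a wide interval of 0.811% to 11.0%. It was lowest in library 4, at 1.79% (0.721% to 3.64%), and in library 8, at 1.58% (1.32% to 1.89%). All intervals cover the error of counting cells only. No pair of neighbours in this order had separate intervals (0 of 7), but 10 of all 28 pairs of libraries did. In 6 libraries the blood cells were the fifth most frequent of 10 labels, in library 4 the eighth and in library 8 the ninth.

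Counted only among cells outside NBs I, the label of type I neuroblasts, the order of the libraries was the same. The mean share was 5.81% ± 2.48 (SD, n = 8). Library 6 was again highest at 8.83% (exact 95% interval 7.44% to 10.4%), and library 8 lowest at 1.94% (1.61% to 2.31%). Between them lay library 7 at 7.70%, library 2 at 7.27%, library 1 at 6.61%, library 5 at 6.48%, library 3 at 5.26% and library 4 at 2.38%. The spread relative to the mean was 43.8% of the mean over all cells and 42.7% outside NBs I, so leaving out type I neuroblasts hardly narrowed it.

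**Figure D1:**
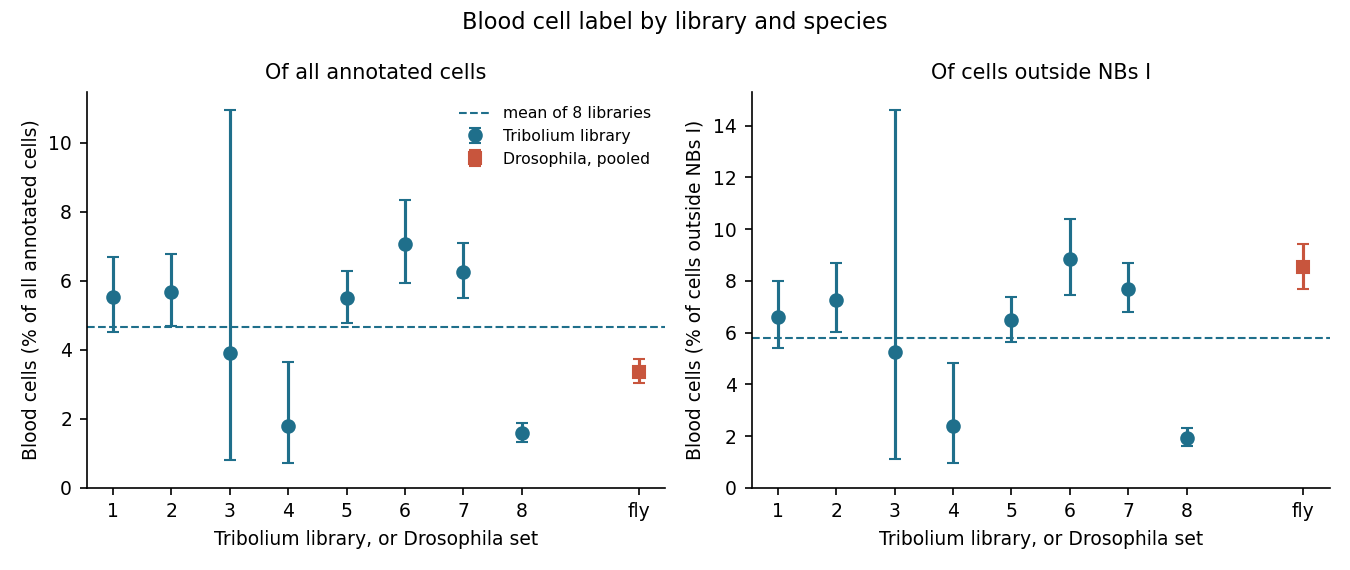
Share of annotated cells with the blood cell label in each of 8 Tribolium libraries and in the pooled Drosophila set, in percent of all annotated cells (left) and of cells outside NBs I (right). Points are values, bars exact 95% binomial intervals, and the dashed line is the mean of the 8 libraries; Drosophila lies below that mean on the left (3.37% against 4.66%) and above it on the right (8.52% against 5.81%).

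The number of blood cells per 100 neural cells takes the mesodermal cells out of the base. It averaged 5.56 ± 2.57 (SD, n = 8). Values were 8.52 in library 6, 7.66 in library 7, 6.83 in library 1, 6.75 in library 5 and 6.68 in library 2. Those 5 libraries stood above the remaining ones, of which library 3 had 4.29, library 4 had 1.93 and library 8 had 1.80. The interval of library 3 (0.863 to 13.1) spanned the values of all the others. The highest and lowest libraries differed 4.73-fold, with intervals of 7.07 to 10.2 for library 6 and 1.49 to 2.16 for library 8.

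Mesodermal cells did not follow the same order. Libraries 6 and 8 had nearly the same number of mesodermal cells per 100 neural cells, 11.9 and 12.0, although their blood cells differed 4.73-fold. Library 4 had about as few blood cells per 100 neural cells as library 8 (1.93 and 1.80), but its mesodermal cells were also few, at 6.06 per 100 neural cells. Library 3 had 5.71 mesodermal cells per 100 neural cells, library 2 had 11.1, library 7 had 14.6, library 5 had 16.0 and library 1 had 16.5. Library 8 was therefore low in blood cells and in the middle of the libraries for mesodermal cells, whereas library 4 was low in both. The low blood cell share of library 8 was not its sole departure from the other 7 libraries. It held 7.21% NBs II/INPs cells (0% to 2.17% elsewhere), 4.63% Sensory NBs (0% to 0.912%) and 9.50% NBs II/INPs/newborn neurons_2? (2.60% to 5.47%). NBs II/INPs/newborn neurons_1? was lower there, at 6.65% (10.8% to 19.1%). The part of these labels in its blood cell values was not tested.

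**Figure D2:**
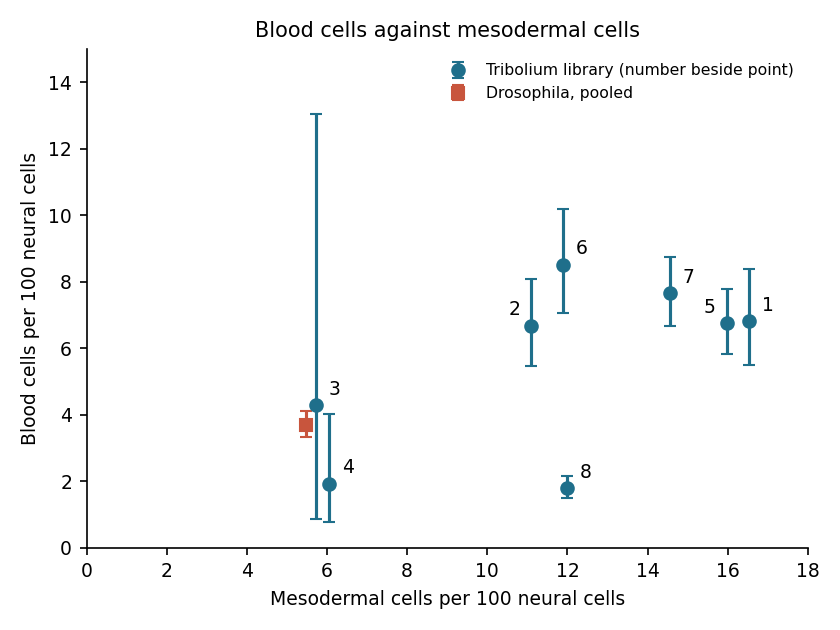
Blood cells per 100 neural cells (vertical axis, with exact 95% intervals) against mesodermal cells per 100 neural cells (horizontal axis), 1 point for each Tribolium library, numbered, and 1 for the pooled Drosophila set. Libraries 2, 6 and 8 lie at 11.1 to 12.0 mesodermal cells, yet library 8 has 1.80 blood cells and library 6 has 8.52.

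The makeup of the non-neural cells can be read without any neural cell in the base. Blood cells were 31.6% ± 9.87 of the non-neural cells (SD, n = 8). Their share was 37.6% in library 2 and 41.7% in library 6, 34.4% in library 7, 29.7% in library 5 and 29.1% in library 1. Library 8 had the lowest share, 13.1% (exact 95% interval 11.0% to 15.4%), from 121 blood cells among 926 non-neural cells. This interval overlapped that of library 4, at 24.1% (10.3% to 43.5%) from 7 blood cells of 29, and that of library 3, where 3 of 7 cells gave 42.9% (9.90% to 81.6%). It lay below the intervals of the other 5 libraries. Set against mesodermal cells only, there were 48.7 ± 20.3 blood cells per 100 mesodermal cells (SD, n = 8). Values were 15.0 in library 8, 71.6 in library 6 and 75.0 in library 3, the last from 3 blood cells and 4 mesodermal cells.

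**Figure D3:**
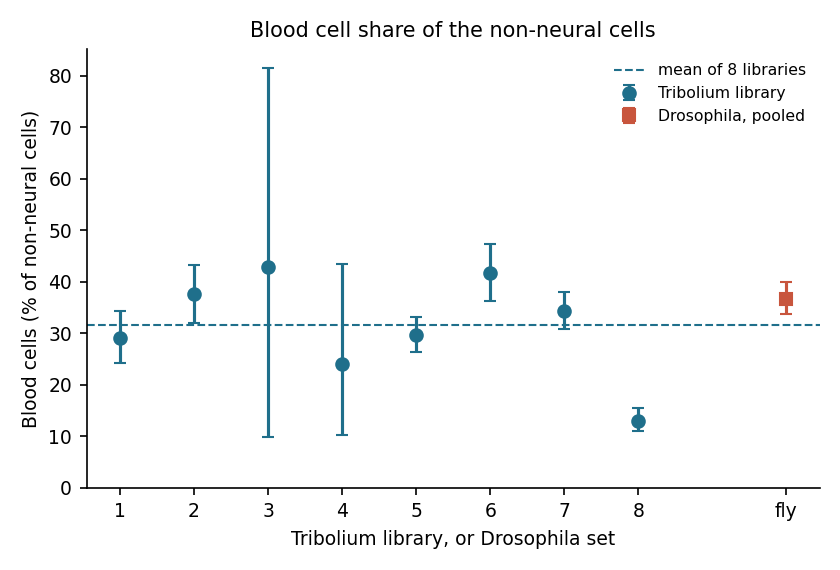
Blood cells as a percentage of the non-neural cells in each Tribolium library and in the pooled Drosophila set. Bars are exact 95% binomial intervals and the dashed line is the mean of the 8 libraries, 31.6%; library 8 lies at 13.1%, while Drosophila lies at 36.8%, inside the range of the libraries.

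How far this spread exceeds counting error was described with the Pearson chi-square of each label over the libraries, which is near 1 per degree of freedom when cells are counted from 1 shared composition. For blood cells against neural cells it was 35.4 per degree of freedom, and without library 8 it was 3.42. For mesodermal cells against neural cells it was 8.39, and without library 8 it was 7.61. The chi-square grows with the number of cells counted, so it does not rank labels of unequal abundance. Relative to their mean, the same shares had an SD of 44.9% for blood cells and 32.2% for mesodermal cells over the 8 libraries, and of 35.7% and 34.9% without library 8. These SDs include counting error, which weighs more on the rarer label. Without library 8 it alone would give an SD of 1.29 points on a mean of 5.71% for blood cells. For mesodermal cells it would give 1.68 points on 10.3%, so these SDs do not rank the labels either. Within the non-neural cells the chi-square per degree of freedom for blood cells was 23.2, and 3.45 without library 8. The standard deviation of the blood cell share of all cells, 2.04 percentage points, was above the 0.958 that counting error alone would give. Library 3, with 77 cells, accounts for much of that counting error: without it the corresponding values were 2.18 and 0.533. No p-value is given, since cells of 1 library are not replicates.

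Whether blood cells went with any other part of the composition was examined over the 8 libraries for 9 measures, all set against blood cells per 100 neural cells. These were mesodermal cells per 100 neural cells, the share of each of the 7 neural labels among neural cells, and the number of annotated cells. None passed Benjamini-Hochberg adjustment, and none had an unadjusted exact permutation p under 0.05 for Pearson's r (0 of 9), while for Spearman's rho 1 of 9 did. The strongest was the label NBs II/INPs/newborn neurons_1?, a group the authors marked with a question mark, with r = 0.67 (two-sided exact permutation p = 0.071, adjusted 0.53) and rho = 0.74 (exact permutation p = 0.046, adjusted 0.41). Libraries 5 and 8 lie farthest from the median of that label, and leaving them out gave r = 0.61 (exact permutation p = 0.18, n = 6). Its adjusted p ranged from 0.31 to 0.82 over 12 alternatives.

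For mesodermal cells r was 0.60 (two-sided exact permutation p = 0.12, adjusted 0.53) and rho 0.45 (exact permutation p = 0.27, adjusted 1). Without libraries 3 and 4, which hold the fewest mesodermal cells per neural cell, r was 0.24 (n = 6, exact permutation p = 0.81), so the relation did not hold without them. Without library 8 instead, r was 0.76 (n = 7, exact permutation p = 0.045, adjusted 0.23). Its adjusted p ranged from 0.23 to 1 over 12 alternatives. Both measures share neural cells as their base, which by itself can make them rise together. The shares of the neural labels have that base too, so it also limits how r can be read for NBs II/INPs/newborn neurons_1?. The number of annotated cells gave r = -0.18 (exact permutation p = 0.69, adjusted 0.89) with library 8 and r = 0.70 without it, so 1 library set the sign. With 8 libraries, of which 2 are small, strong relations could be missed as well as weak ones. Neither r = 0.67 over all 8 libraries, for NBs II/INPs/newborn neurons_1?, nor the r of 0.76 without library 8 passed adjustment.

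The same label in the pooled Drosophila set allows fly and beetle to be put side by side. Fly blood cells were 3.37% of all annotated cells (exact 95% interval 3.03% to 3.73%), 0.722 times the beetle mean, with 6 beetle libraries above this value and 2 below it. Among cells outside NBs I they were 8.52% (7.68% to 9.41%; 351 of 4120 cells), 1.47 times the beetle mean, with 1 library above and 7 below. The direction of the species difference therefore turned with the base, from -1.30 to 2.71 percentage points. Type I neuroblasts were 60.5% of the fly cells (6305 of 10425) but 18.3% of all beetle cells pooled (3863 of 21148). In single beetle libraries they were 15.1% (library 5) to 26.0% (library 3). Leaving them out thus shrinks the fly base far more than the beetle base. By either measure the fly value lay within the range of the beetle libraries, at -0.635 and 1.09 beetle SDs from their mean. Of all cells, however, only 2 library intervals overlapped that of the fly, while 5 lay wholly above it and 1 wholly below. Outside NBs I, 5 overlapped it and 3 lay wholly below. No p-value was computed, because 1 pooled value against 8 cannot give an exact permutation p below 0.111.

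Against all neural cells there were 3.71 fly blood cells per 100 (exact 95% interval 3.32 to 4.12), compared with 5.56 ± 2.57 in the beetle (SD, n = 8). Against neural cells other than NBs I there were 11.1 per 100 (9.90 to 12.4), compared with 7.24 ± 3.30 (SD, n = 8), and 7 of 8 libraries lay below the fly value. Single labels were then used as the base, for the 6 of them that occur in every library. For 5 of the 6 the fly had more blood cells per base cell than the beetle mean, and the exception was NBs I. These ratios all use the same blood cell counts, and their bases are parts of the same composition. With NBs I at 60.5% of fly cells and 18.3% of pooled beetle cells, less of the fly set is left for the other labels. The 5 are therefore not separate results.

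Per 100 ganglion mother cells (GMC), the dividing daughters of neuroblasts, the fly had 18.1 blood cells (exact 95% interval 16.1 to 20.3) and the beetle 11.3 ± 5.31 (SD, n = 8). All 8 libraries lay below the fly value, but the highest, library 6, at 17.5, was inside the fly interval. Per 100 mesodermal cells the fly had 67.6 (58.9 to 77.6) and the beetle 48.7 ± 20.3 (SD, n = 8), with 6 libraries below and 2 above. The highest of the libraries, library 3, rests on 3 blood cells and 4 mesodermal cells. Per 100 Midline_NBs cells, of which library 3 held 1, the fly value was 1.60 times the beetle mean and 2.29 times the value of all beetle cells pooled. Per 100 NBs II/INPs/newborn neurons_1? cells it was 1.56 times the beetle mean. Per 100 NBs II/INPs/newborn neurons_2? cells it was 1.05 times, and it fell below the beetle mean without library 4 (0.965 times) or library 8 (0.937 times). Per 100 NBs I cells the fly had 5.57 blood cells and the beetle 24.5 ± 12.4 (SD, n = 8), with 8 of 8 libraries above the fly.

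**Figure D4:**
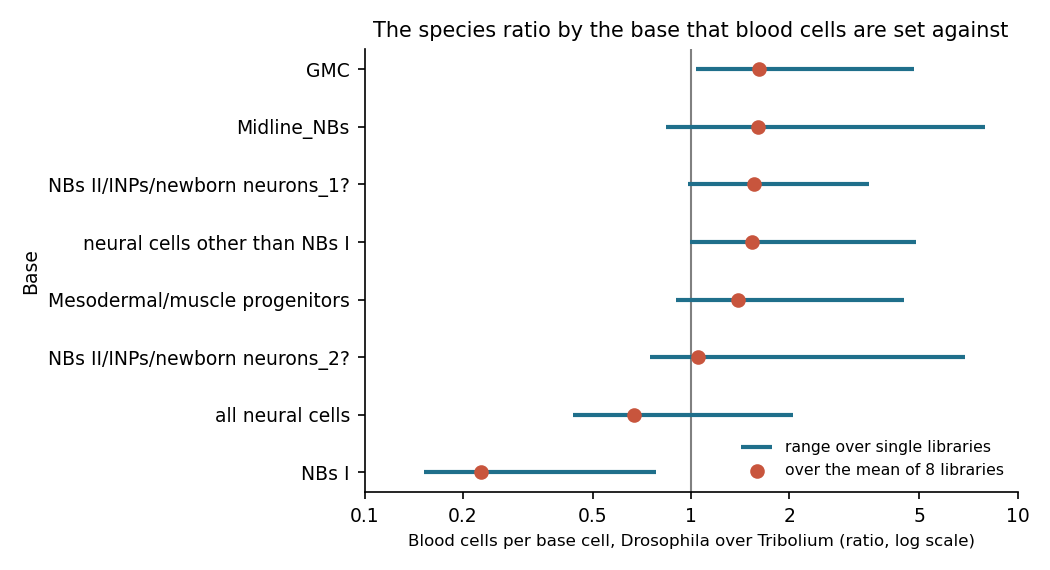
Blood cells per base cell in the pooled Drosophila set over the same value in Tribolium, on a logarithmic axis, for 8 choices of base. Points are ratios to the mean of the 8 libraries and lines span the ratios to the highest and lowest single library; the ratio is 0.227 with NBs I as the base, 0.667 with all neural cells and 1.53 with neural cells other than NBs I.

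Within the non-neural cells, fly blood cells were 36.8% (exact 95% interval 33.7% to 39.9%), compared with 31.6% ± 9.87 in the beetle (SD, n = 8). The fly value was above 5 libraries and below 3, and the intervals of 6 libraries overlapped its own. The 2 that did not were library 8 and library 5, the latter at 29.7% (26.3% to 33.3%). The fly count of non-neural cells includes 85 cells labelled PCGs, against 2 in all beetle libraries. The fly share lay 5.18 percentage points above the beetle mean. Without the PCGs label this difference was 8.75, and without library 8 it was 2.53, so both moved it by more than 1.5 times. Mesodermal cells, by comparison, were 12.6% of fly cells outside NBs I and 12.2% ± 3.38 of the beetle ones (SD, n = 8), with 4 libraries above and 4 below. Species, stage, isolation and the assignment of labels, for which label transfer is named, cannot be told apart in these values.

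Barcodes shared between libraries touched few blood cells. The barcode of 7 of 910 beetle blood cells (0.769%) also occurred in another beetle library, compared with 137 of 20238 other cells (0.677%). None of these 7 had a blood cell as its partner in the other library (0 of 7). Blood cells were 4.30% of all beetle cells, so 7 partners are too few to read anything from this 0. Leaving out all 144 beetle cells with such a barcode gave a blood cell share of 4.67% of all cells, against 4.66% with them.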

How the data were processed

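The authors deposited 1 table that lists every annotated cell by barcode, label and species. The submitters' processing notes name Cell Ranger and Scanpy, with neither version nor role. Label transfer is named in the title of the table. No source used here gives the transfer method, the genome builds, the cell filters or the handling of droplet doublets. Per the labels' protocols, doublets were gated out at the sort by scatter. Molecules per cell were not used here.

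Each barcode has 16 bases, and beetle barcodes end in 1 to 8, which was matched to the replicate given in each sample's title, by number alone. Of the fly cells, 193 carry a suffix and 10232 do not. Libraries are replicates of 1 group. Nothing says that they came from separate embryo collections, so the differences between them may be technical. The p-values concern only how 2 measures pair over these libraries, and each library counts equally whatever its number of cells. Means and SDs weight libraries equally. Shares have exact (Clopper-Pearson) 95% intervals, and ratios per 100 cells were derived from the same intervals. For correlations, two-sided exact permutation tests ran over all 40320 pairings. The label, measures and tests were chosen with earlier results of these data known. The ratios to single labels were chosen after the values were seen. Labels were named by rule: blood cells, the other non-neural labels, and neural labels that passed the adjusted threshold; none passed, and other neural labels were named after their values were seen. Computations used scipy 1.17.1, numpy 2.4.6 and pandas 2.3.3 under Python 3.11.15, and figures matplotlib 3.10.9.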

Additional observations from a re-analysis of the deposited data

How the results depend on the processing

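The alternative runs were pooling cells, libraries of at least 500 cells, other sets of labels in the base, no suffixed fly cells, and leaving out each library. None of the 5 species differences, each on its own base, changed sign in any run. They and all 5 beetle means moved by less than 1 SD of the libraries. This is a wide yardstick for differences of -0.719 to 1.09 SDs. The difference of 5.18 points in the non-neural share became 2.53 without library 8 and 8.75 without the PCGs label. Leaving out 1 library gave blood cell shares of 4.32% to 5.10% of all cells, 5.38% to 6.36% outside NBs I and 30.0% to 34.2% of non-neural cells, and 5.13 to 6.09 per 100 neural cells. With cells pooled, the fly difference per 100 mesodermal cells went from 18.9 to 29.2, and the ratio per NBs II/INPs/newborn neurons_2? cell from 1.05 to 1.70. This ratio fell below 1 without library 4 or 8. The chi-square per degree of freedom of the blood cell share of all cells was 34.4 and ranged from 3.30 to 40.2 without each library, the lowest without library 8. Among the 9 relations, 0 passed adjustment in the main analysis and under each of the 12 alternatives (lowest adjusted exact permutation p = 0.23). Signs turned for several of them, and the cause was not tested. Without the 2 libraries farthest from the median, r became -0.61 for GMC, 0.12 for NBs II/INPs, 0.42 for NBs II/INPs/newborn neurons_2?, 0.68 for Sensory NBs and 0.65 for the number of cells. Spearman's rho was 0.17 for Midline_NBs and 0.048 for NBs II/INPs, Sensory NBs and the number of cells, where r was below 0. With the 6 libraries of at least 500 cells r was 0.30 for NBs I, and it was further from 0 for Sensory NBs (-0.95), NBs II/INPs/newborn neurons_2? (-0.92), NBs II/INPs (-0.89) and the number of cells (-0.88) than over all 8 (-0.45, -0.33, -0.45 and -0.18), where library 8 is among the 6 (lowest adjusted exact permutation p = 0.24). Leaving out each library gave r from 0.41 to 0.76 for mesodermal cells, -0.64 to 0.27 for GMC, -0.29 to 0.32 for Midline_NBs, -0.60 to 0.36 for NBs II/INPs, -0.53 to 0.52 for NBs II/INPs/newborn neurons_2?, -0.72 to 0.70 for Sensory NBs and -0.52 to 0.70 for the number of cells, and ratios from 0.937 to 1.12 per NBs II/INPs/newborn neurons_2? cell. No paired analysis was possible because the libraries form 1 group. Library 3, with 77 cells, and library 4, with 392, limit the precision.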

Other observations

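The 193 fly cells whose barcode carries a suffix held 8 blood cells, 4.15% of them (exact 95% interval 1.81% to 8.00%), and the 10232 without one held 343, or 3.35% (3.01% to 3.72%). Of the 193 barcodes, 64 also occurred without the suffix, and 23 of these 64 pairs carried the same label. The label NBs I alone made up 53.9% of the suffixed cells and 60.6% of the others. Unrelated cells would thus often share a label too, and the 23 do not mark pairs as the same cell. A blood cell was part of 4 of the pairs, and in none of them were both cells blood cells (0 of 64). Blood cells were 3.37% of all fly cells, so 64 pairs are too few to read anything from this 0. Of all 10425 fly barcodes, 3 (0.029%) also occurred in a beetle library. None of the 3 belonged to a fly blood cell, but 3 barcodes are too few to say anything about blood cells.

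In none of the 5 blood cell measures, nor in mesodermal cells per 100 neural cells, did a library stand far enough from its nearest neighbour to pass Dixon's gap test at the 95% level. The widest gap covered 0.372 of the range over 8 libraries, for library 8 in the blood cell share of the non-neural cells. The test uses 1 gap, so it cannot flag a library that has a near neighbour. Of all annotated cells, library 8 (1.58%) lay beside library 4 (1.79%, from 7 blood cells), and the gap tested was that of library 6. The result thus does not say that library 8 is like the others.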
